A study of Mus musculus with 4 samples.

Results

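The collagen genes of the mouse, which encode the chains of the triple-helical proteins of the extracellular matrix, were examined for binding of the glucocorticoid receptor (GR) near them. The 41 members were taken by name from the collagen gene family, out of 21631 protein-coding genes with a span on chromosomes 1 to 19 or X in the RefSeq annotation of GRCm38 (mm10), and all 41 had a span there. A gene was counted as having a GR peak when the centre of a listed peak lay in its span, from the first to the last annotated base, or within 25 kb of it. GR was immunoprecipitated with a mixture of antibodies from the chromatin of 33AP1C9 cells, a mouse mammary line that descends from C127, and the bound DNA was sequenced (ChIP-seq). All groups carry integrated copies of a reporter driven by the mouse mammary tumour virus promoter (MMTV-pp7) and express PP7 coat protein fused to GFP, and all were plated in medium with charcoal-stripped serum before hormone. The cells were untreated or had 600 nM corticosterone, the main glucocorticoid of rodents, for 1 h or 12 h, with 1 library of each analysed here. The values thus describe 1 line and single libraries, and no difference between conditions has a replicate check.

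Collagens fall into structural classes. Fibrillar chains build the banded fibrils of connective tissue, type IV chains build the sheet of the basement membrane, and other classes coat fibrils, form beaded filaments, anchor epithelia or cross the plasma membrane. Mammary epithelial cells rest on a basement membrane, and glucocorticoids are known to lower collagen production in fibroblasts and skin. On hormone binding GR moves to the nucleus and occupies mostly distal regulatory regions. Its DNA element consists of inverted copies of the hexamer TGTTCT, written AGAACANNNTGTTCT for the full element.

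After 1 h of corticosterone 21 of the 41 collagen genes (51.2%) had a listed GR peak, against 17.1% of all protein-coding genes, and after 12 h 10 (24.4%) had one, against 9.33%. The 10 genes with a peak at both times were Col3a1, Col5a2, Col24a1, Col27a1, Col4a1, Col4a2, Col4a6, Col6a2, Col22a1 and Col23a1. Another 11 had a peak in the 1 h list alone, namely Col1a1, Col5a1, Col5a3, Col4a5, Col28a1, Col7a1, Col12a1, Col16a1, Col19a1, Col8a1 and Col13a1. None had one at 12 h alone. The 20 genes without a listed peak were Col1a2, Col2a1, Col11a1, Col11a2, Col4a3, Col4a4, Col6a1, Col6a3, Col8a2, Col10a1, Col9a1, Col9a2, Col9a3, Col14a1, Col20a1, Col15a1, Col18a1, Col17a1, Col25a1 and Col26a1.

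By class, a 1 h peak was listed for 7 of 11 fibrillar genes, 4 of 6 basement membrane genes, 4 of 9 fibril-associated genes (FACITs and related chains) and 2 of 4 transmembrane genes. It was also listed for 2 of 4 genes of beaded filaments and related chains, 1 of 3 short-chain network genes and the anchoring fibril gene Col7a1. Neither of the multiplexins, Col15a1 and Col18a1, had one. At 12 h the counts were 4 fibrillar, 3 basement membrane and 1 each of the fibril-associated, beaded filament and transmembrane genes. Of all protein-coding genes 17.1% had a 1 h peak and 9.33% a 12 h peak. The classes are small, rates for genes of like span were not taken by class, and differences between classes were not tested. Neighbouring members share peaks: 1 site counted for both Col3a1 and Col5a2 and another for both Col4a5 and Col4a6. Col5a2 was in the 12 h list through the shared site alone.

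Collagen genes are long, and a long gene offers more room for a peak. The median span was 114.5 kb for the members and 17.33 kb for all protein-coding genes. Within the members it was 130.5 kb for the 21 with a 1 h peak and 60.43 kb for the 20 without. Of the protein-coding genes in the longest of 5 equal groups by span, 31.9% had a 1 h peak, and 15 of the 25 collagen genes in that group did. In the group from 24.9 to 57.8 kb the values were 18.9% and 5 of 11. If members had peaks at the rates of all protein-coding genes in their own span group, 10.7 of the 41 (26.2%) would have had one at 1 h and 6.08 (14.8%) at 12 h. The counts found were 21 and 10, and no test was made of either difference. With 10 or 20 groups of span the reference values were 12.1 and 11.9 at 1 h and 6.94 and 6.79 at 12 h.

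**Figure D1:**
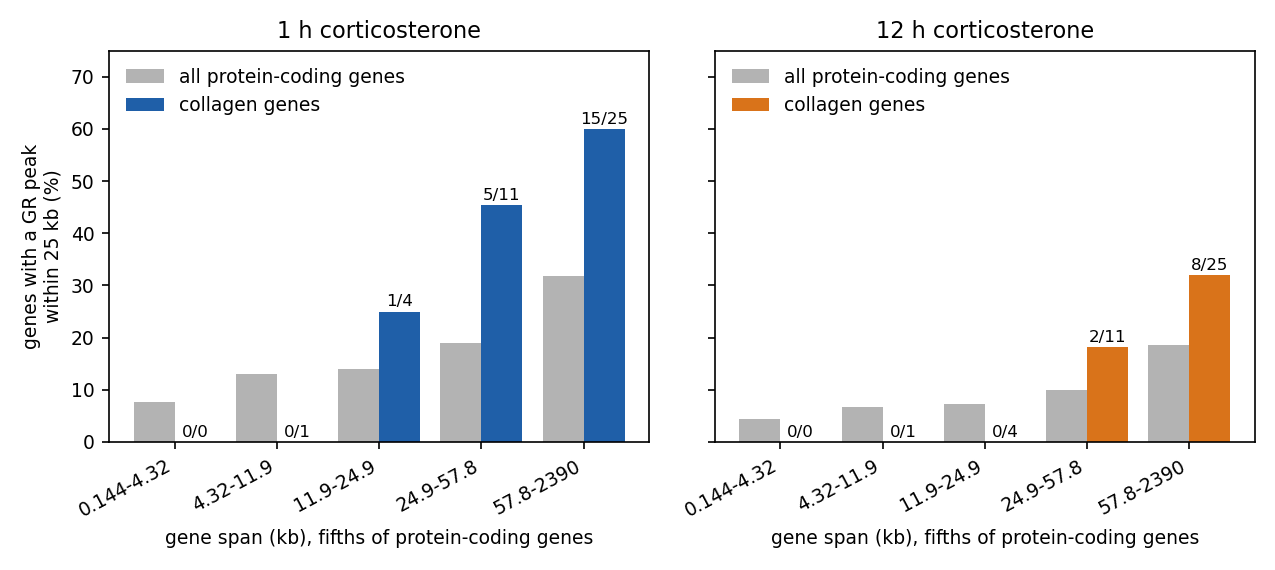
Share of genes with a GR peak within 25 kb of the span (y axis, percent) in 5 groups of protein-coding genes ordered by span in kb (x axis), for all protein-coding genes (grey) and collagen genes (coloured, with members with a peak over members in the group). In the longest group 15 of 25 collagen genes had a 1 h peak and 8 of 25 a 12 h peak, against 31.9% and 18.5% of all genes there.

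Counted per length, the spans of the collagen genes held 26 peaks in 5.091 Mb at 1 h, or 5.11 per Mb (exact Poisson 95% interval 3.34 to 7.48). All protein-coding spans held 2.35 per Mb (2.26 to 2.44). At 12 h the densities were 2.16 (1.08 to 3.87) for collagen genes and 1.13 (1.07 to 1.2) for all. With the 25 kb on each side, the collagen genes had 37 peaks at 1 h, 5.35 per Mb (3.76 to 7.37), against 2.49 (2.41 to 2.57). At 12 h they had 16, 2.31 per Mb (1.32 to 3.75), against 1.23 (1.18 to 1.29). Peaks cluster at single loci, and the intervals cover counting error only and treat peaks as independent.

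The 1 h list held 5638 peaks in all from 90556119 tags (sequenced fragments placed on the genome) and the 12 h list 2883 from 97749688. The untreated list held 1 peak from 79203826 tags, and it lay over 100 kb from every member. The untreated library was the control for both treated lists, so a listed site stood at least 6-fold above it by construction. A site also had to stand 6-fold above its surrounding 10 kb and to reach a caller threshold of 75 tags, which equals 8.28 normalised tags at 1 h and 7.67 at 12 h. Normalised tags are tags in the peak window scaled to a library of 10000000, and all tag values below are on that scale unless called raw. The caller applied the threshold to its own score, and 50 peaks of the 1 h list and 25 of the 12 h list held fewer than 75 raw tags in the window, at least 68. Windows were 282 bp wide at 1 h and 302 bp at 12 h. Peak lists do not measure RNA, so the labelled cell type could not be checked against marker genes, and a peak near a gene does not show that the gene responds to hormone.

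At the collagen sites of the 1 h list the untreated library had 2 to 25 raw tags (median 14, against 11 at all 1 h peaks), and at those of the 12 h list 7 to 28 (median 16, against 12). The part of this higher background in the counts was not tested. The fold over it had a median of 12.97 at 1 h (6.04 to 128.76), against 14.18 for all peaks, and of 14.04 at 12 h (7.62 to 47.27), against 12.46. Tags at the collagen sites ran from 8.39 to 238.2 at 1 h with a median of 19.8, close to the 18.3 of all peaks. At 12 h they ran from 9.41 to 89.0 with a median of 23.1, against 18.0. Among the 1 h sites 3 held over 100 tags and 2 over 200, where all peaks included 229 and 49 such sites. No collagen site held over 100 tags at 12 h, where 92 of all peaks did.

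In all, 41 sites lay near collagen genes: 12 in both lists, 25 in the 1 h list alone and 4 in the 12 h list alone. The shared sites made up 32.4% of the 1 h collagen peaks (Wilson 95% interval 19.6 to 48.5%), against 43.2% of all 1 h peaks, and 75% of the 12 h collagen peaks (50.5 to 89.8%), against 84.5% of all 12 h peaks. Both background shares lay inside these intervals, which treat sites as independent although several sites share a locus. Inside the span of a member lay 26 of the 37 sites at 1 h and 11 of the 16 at 12 h. Exon and intron boundaries were not used here.

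**Figure D2:**
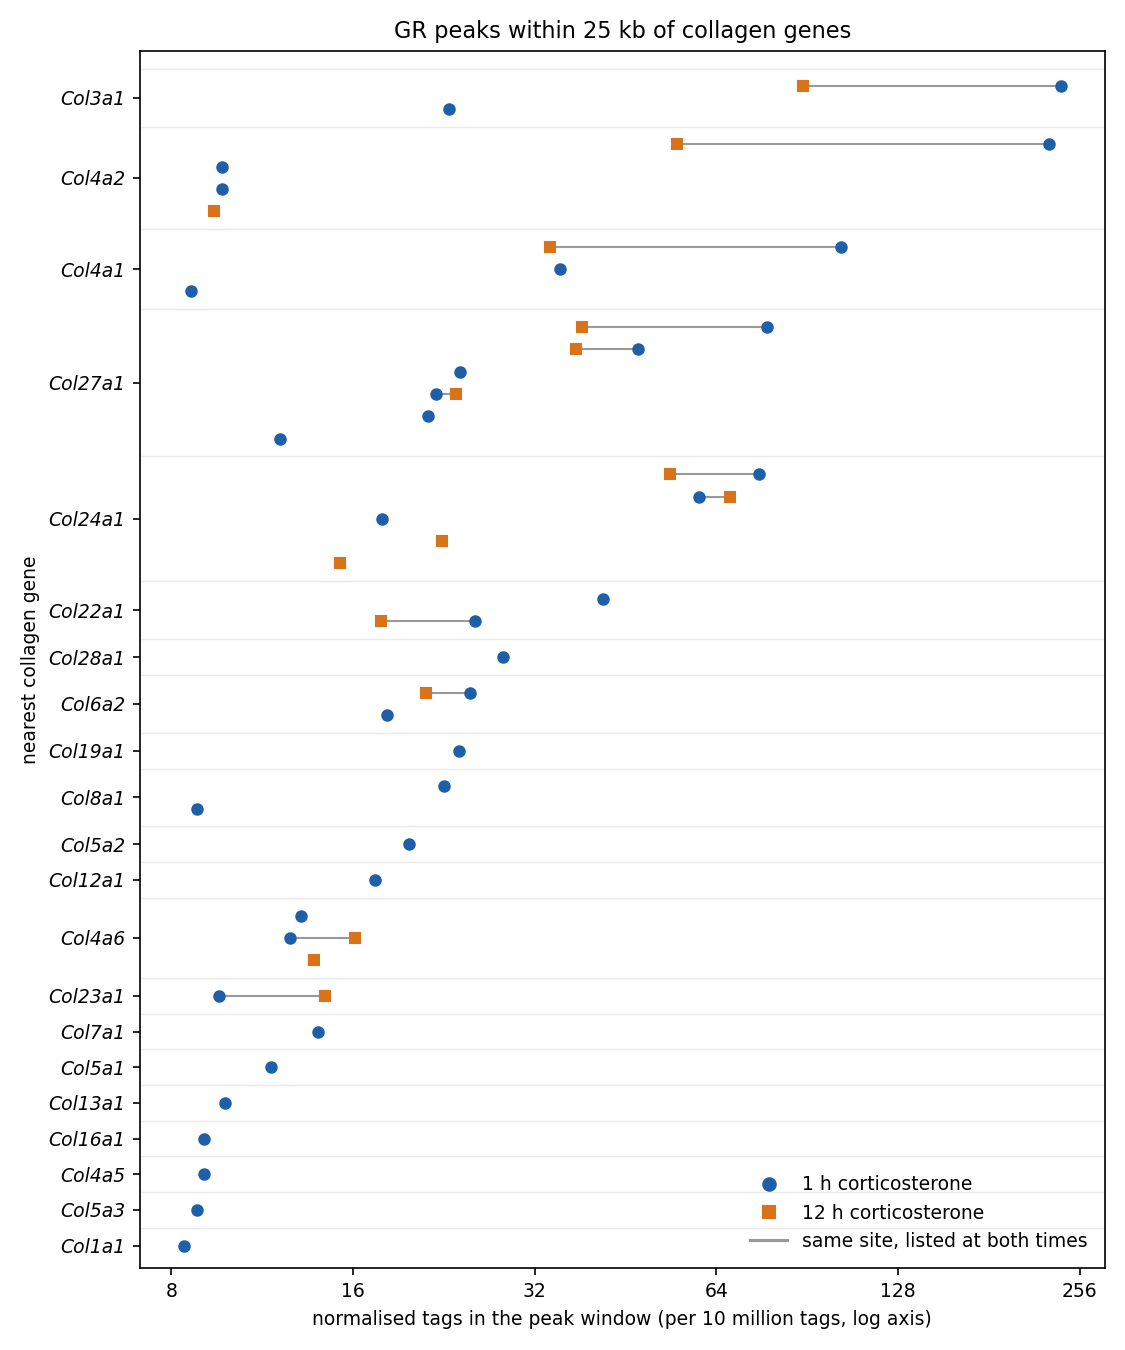
Normalised tags per peak window (x axis, log scale, per 10000000 tags) at the 41 GR sites near collagen genes, grouped by nearest collagen gene (y axis), with circles for 1 h and squares for 12 h of corticosterone and a line joining the values of a site in both lists. The sites past Col3a1 (238.2 and 89.0 tags) and inside Col4a2 (227.6 and 55.1) stand to the right of all others at 1 h, and most sites of the 1 h list alone lie at its low end.

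Few collagen sites lay near the start of transcription of their own member. The RefSeq promoter table (GRCm38.p6), which gives 250 bases before to 50 after a start site, held 35 windows for 32 of the 41 members. It gave no start site for Col12a1, Col14a1, Col1a1, Col22a1, Col26a1, Col2a1, Col4a3, Col5a2 and Col9a3. No GR peak overlapped any of the 35 windows at 1 h or 12 h, where a 1 h peak overlapped 0.304% of all 32851 windows and a 12 h peak 0.158%. Of the 36 collagen sites with a start site to measure from, 0 lay within 1 kb of it and 3 within 5 kb, and the median distance was 79.66 kb. The 3 were a Col4a5 site at 1.139 kb, a Col5a1 site at 3.14 kb and a Col3a1 site at 4.725 kb, each downstream of the start. Such distances were not taken for all peaks, and the members have a median span of 114.5 kb. The values thus do not set collagen sites apart from other GR sites. The hexamer TGTTCT, searched with its reverse complement AGAACA, occurred in 2 of the 35 member windows (5.71%; Col20a1 and Col9a1) and in 19.0% of all windows. The full element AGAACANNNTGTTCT occurred in 0 member windows and in 3 of all (0.00913%). An absent match says only that these letters are not in the window.

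Promoter windows are shown for the genes with the strongest GR sites and for the gene with a site nearest to its start, since these are the starts from which the distances were taken. They are at chr1:45311288-45311587 (plus strand) for Col3a1, chr8:11312555-11312854 (plus) for Col4a2, chr8:11312777-11313076 (minus) for Col4a1 and chrX:141475169-141475468 (plus) for Col4a5. Each is written 5′ to 3′, from RefSeq GRCm38.p6. Capitals mark the 78 bases that the Col4a1 and Col4a2 windows share on opposite strands.
Col3a1: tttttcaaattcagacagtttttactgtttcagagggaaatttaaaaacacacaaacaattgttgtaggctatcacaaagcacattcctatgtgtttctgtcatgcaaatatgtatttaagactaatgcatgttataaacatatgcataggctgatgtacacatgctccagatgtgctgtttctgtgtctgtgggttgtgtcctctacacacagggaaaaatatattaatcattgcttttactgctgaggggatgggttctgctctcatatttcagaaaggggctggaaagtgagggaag
Col4a2: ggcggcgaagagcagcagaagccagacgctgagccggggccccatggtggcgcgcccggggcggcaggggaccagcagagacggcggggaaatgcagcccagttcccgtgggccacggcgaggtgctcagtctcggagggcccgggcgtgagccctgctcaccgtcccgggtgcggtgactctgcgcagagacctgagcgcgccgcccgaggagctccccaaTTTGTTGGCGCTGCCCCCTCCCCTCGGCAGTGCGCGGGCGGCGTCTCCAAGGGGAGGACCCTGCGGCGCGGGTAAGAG
Col4a1: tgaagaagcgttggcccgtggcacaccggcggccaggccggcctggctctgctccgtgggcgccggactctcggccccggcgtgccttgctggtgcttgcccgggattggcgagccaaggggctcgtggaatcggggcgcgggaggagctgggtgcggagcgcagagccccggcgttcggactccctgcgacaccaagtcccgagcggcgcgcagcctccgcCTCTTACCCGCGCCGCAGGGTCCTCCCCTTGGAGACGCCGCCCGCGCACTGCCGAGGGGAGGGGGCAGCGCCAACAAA
Col4a5: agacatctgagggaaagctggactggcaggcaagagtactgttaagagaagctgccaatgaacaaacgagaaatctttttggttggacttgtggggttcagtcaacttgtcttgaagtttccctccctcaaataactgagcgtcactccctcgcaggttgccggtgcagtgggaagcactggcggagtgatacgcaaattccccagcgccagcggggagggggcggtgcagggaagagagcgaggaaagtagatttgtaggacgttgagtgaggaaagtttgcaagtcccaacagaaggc
The start sites of Col4a1 and Col4a2 lie 21 bp apart on opposite strands, each inside the other gene's span. G and C made up 73.7% of the Col4a2 and 74.0% of the Col4a1 window, 52.7% of the Col4a5 window and 37.7% of the Col3a1 window. None of the 4 held the hexamer. The nearest 1 h peak lay 31.84 kb from the Col4a1 start, 31.86 kb from that of Col4a2, 4.725 kb from that of Col3a1 and 1.139 kb from that of Col4a5.

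Among the fibrillar genes, Col3a1 encodes the chain of type III collagen, which forms fibrils with type I in extensible tissues, and Col5a2 a chain of type V collagen, which sets fibril diameter. They are neighbours on chromosome 1 with 24.6 kb between them. The strongest collagen site of the series lay in that gap, 6.54 kb past Col3a1 and 18.1 kb from Col5a2 (chr1:45356101-45356383). It held 238.2 tags at 1 h, the 34th most of 5638 peaks, and 89.0 at 12 h, with 19 raw tags in the untreated library at the 1 h window. The log2 ratio of 12 h over 1 h was -1.42 (95% counting interval -1.54 to -1.31), and the fold over the untreated library was 99.29 at 1 h and 33.57 at 12 h. It remained the strongest collagen site at 12 h. A second Col3a1 site inside the gene, the one 4.725 kb past its start (chr1:45316122-45316404), held 23.1 tags at 1 h alone. A second Col5a2 site, 13.7 kb outside that gene (chr1:45516817-45517099), held 19.8 at 1 h alone.

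Col24a1 and Col27a1 encode less abundant fibrillar chains, known from bone and cornea and from cartilage. Col24a1 was the collagen gene with most 12 h sites, 4 against 3 at 1 h, all inside its 259.5 kb span on chromosome 3. Its shared pair lay in the distal part of the gene, 212.5 and 222.0 kb from the start. The first (chr3:145504857-145505139) held 60.0 tags at 1 h and 67.5 at 12 h, a log2 ratio of 0.17 (0.005 to 0.338), with 25 raw tags in the untreated library, the most at any collagen site of the 1 h list. The second (chr3:145514303-145514585) held 75.3 and 53.7, a ratio of -0.49 (-0.66 to -0.32). The ratios of these neighbouring sites thus had opposite signs under this scaling. A site 128.2 kb from the start held 17.9 tags at 1 h alone. The remaining 2, at 171.7 and 205.8 kb, were in the 12 h list alone with 15.2 and 22.5 tags, and their untreated counts meant that 11.4 and 13.6 tags would have been needed at 1 h. The shared pair summed to 135.3 tags at 1 h and 121.2 at 12 h.

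Col27a1 had 6 sites at 1 h, more than any other member, and 3 of them at 12 h. Only 3 of the 6 lay inside the gene, and the other 3 lay in the 25 kb beyond its far end on chromosome 4, where the genes of the acute phase protein orosomucoid begin, with 9.56 kb between Col27a1 and Orm1. The site 9.0 kb out (chr4:63343854-63344136), which lay 0.561 kb from Orm1, held 47.4 tags at 1 h and 37.4 at 12 h, a log2 ratio of -0.34 (-0.55 to -0.14). The site 13.7 kb out (chr4:63348508-63348790), 0.486 kb from Orm1, held 77.5 and 38.4, a ratio of -1.01 (-1.2 to -0.83). A site 21.1 kb out and 0.027 kb from Orm3 held 24.1 at 1 h alone. These 3 sites were thus nearer to an orosomucoid gene than to Col27a1. Inside Col27a1 itself, the site 96.37 kb from the start held 22.0 and 23.7 tags, a ratio of 0.11 (-0.17 to 0.39) whose interval held 0. The other 2 internal sites, at 14.88 and 81.54 kb, held 12.1 and 21.3 at 1 h alone.

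The remaining fibrillar genes with a peak were in the 1 h list alone and with few tags. Col5a1, another type V chain, held 11.7 tags 3.14 kb past its start. Col5a3, the third type V chain, held 8.83 inside its span. Col1a1, which with Col1a2 encodes type I collagen, the main collagen of connective tissue, held 8.39 at a site 8.03 kb outside the gene. This Col1a1 site was the weakest collagen site of the 1 h list, with 76 raw tags against the threshold of 75 and a fold of 6.04 over the untreated library against the minimum of 6. The second chain of type I collagen, Col1a2, had no listed site at either time, nor did Col2a1, Col11a1 or Col11a2, known from cartilage.

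Col4a1 and Col4a2 encode the chains of the common type IV network of basement membranes and overlap by 85 bp at their starts on chromosome 8. Together they had 7 sites over 284.3 kb, 6 at 1 h and 3 at 12 h. The strongest (chr8:11381987-11382269) lay inside Col4a2, 69.32 kb from its start, and held 227.6 tags at 1 h, the 35th most of all peaks, and 55.1 at 12 h. With 14 raw tags in the untreated library, its fold of 128.76 at 1 h was the highest of the collagen sites. Its log2 ratio of -2.04 (-2.19 to -1.91) was the lowest of the 12 shared sites. The second shared site (chr8:11270883-11271165), inside Col4a1 and 41.8 kb from its start, held 102.9 and 33.9, a ratio of -1.60 (-1.79 to -1.42). So the sites flanking the shared start region on either side both held fewer tags in the 12 h library, and their sum went from 330.5 to 89.0.

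The other sites of this locus were in 1 list only. A further site inside Col4a1, 50.59 kb from its start, held 35.3 tags at 1 h alone. At 12 h 12.9 tags would have met the threshold and the fold over the untreated library. The fold over the surrounding 10 kb, 9.04 at 1 h, was left out of that value. Weak 1 h sites of 9.72 tags each lay 31.86 and 50.76 kb inside Col4a2, and one of 8.61 lay 24.9 kb outside Col4a1, just within the 25 kb limit. At 12 h alone a site of 9.41 tags lay 8.23 kb past Col4a2, inside the neighbouring gene Rab20.

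**Figure D3:**
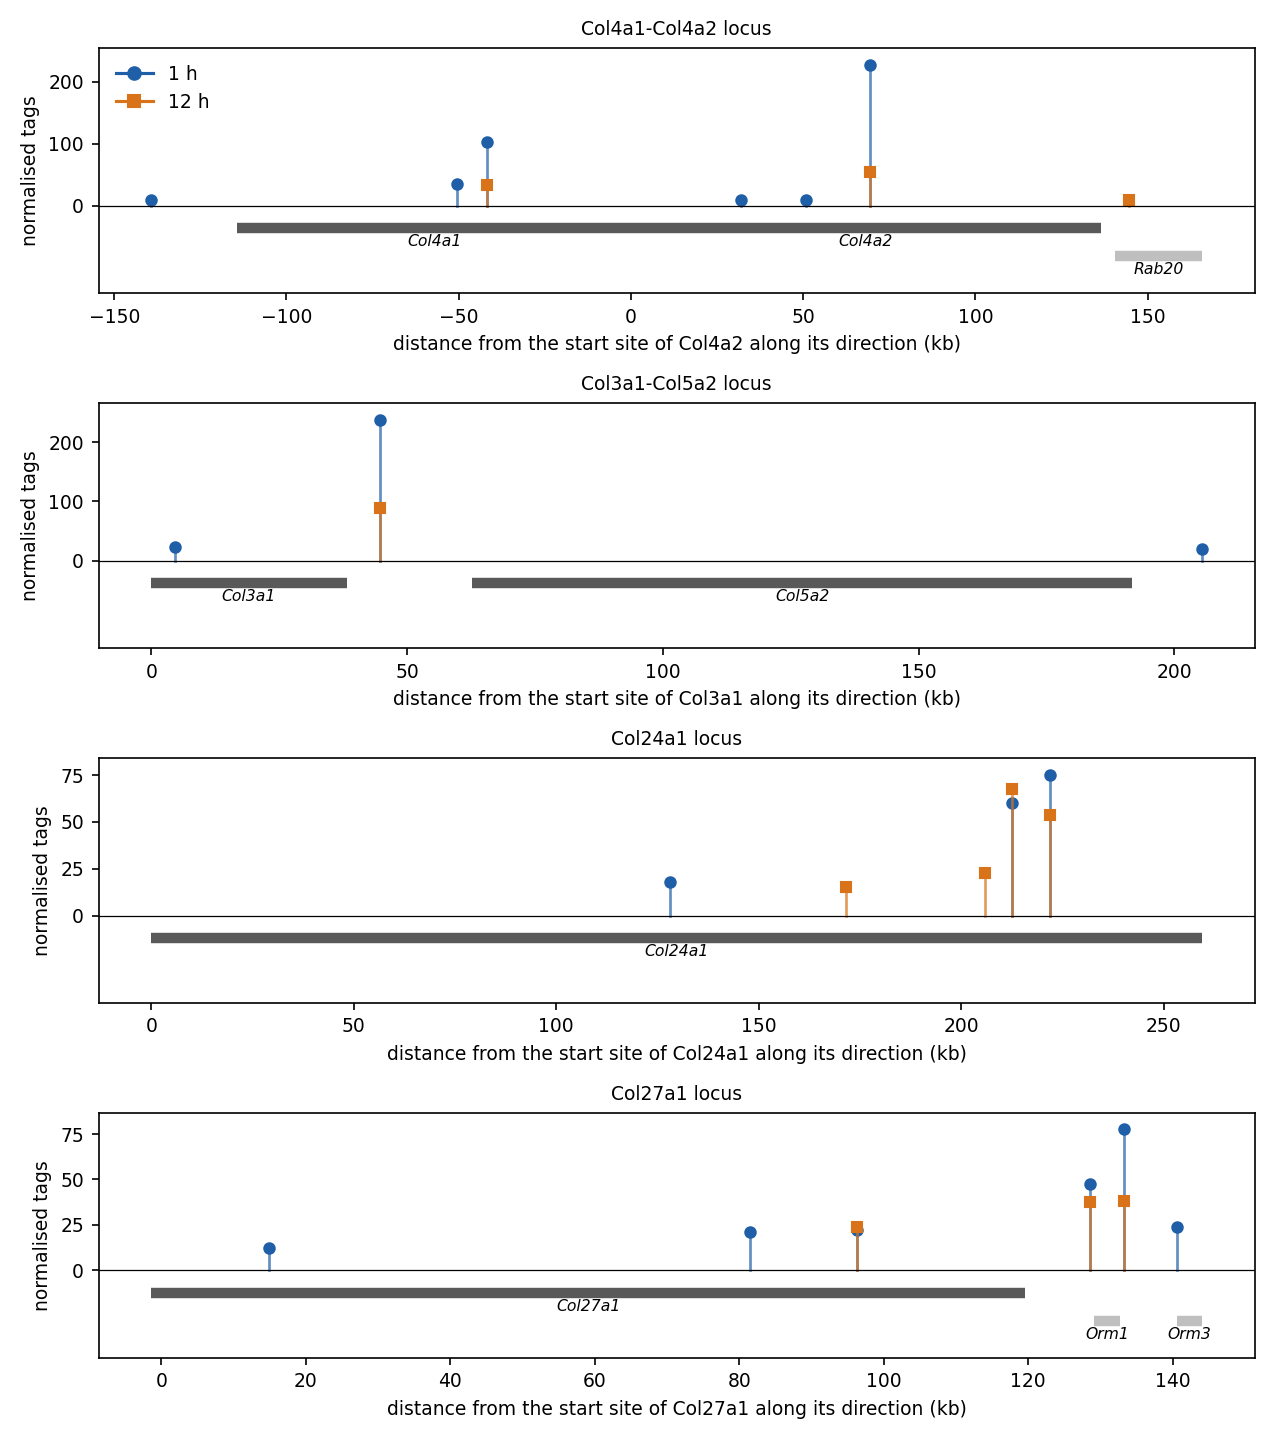
Normalised tags (y axis) at GR sites of 4 collagen loci against distance in kb from the start site of the named gene (x axis), at 1 h (circles) and 12 h (squares), with dark bars for collagen gene spans and light bars for other genes. The tall 1 h values are the sites past Col3a1 (238.2 tags) and inside Col4a2 (227.6), and the Col27a1 sites of 47.4 and 77.5 tags lie beside Orm1.

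The other type IV genes are also arranged head to head, Col4a5 with Col4a6 on chromosome X, 1.27 kb apart, and Col4a3 with Col4a4, which overlap by 114 bp. The chains of Col4a3, Col4a4 and Col4a5 form the network of the kidney glomerulus. The Col4a5 and Col4a6 locus held 4 sites with few tags. One inside Col4a6, 236.3 kb from its start (chrX:141237625-141237907), held 12.6 tags at 1 h and 16.1 at 12 h, a log2 ratio of 0.35 (-0.01 to 0.71) whose interval held 0. Others inside Col4a6 held 13.1 at 1 h alone, with 2 raw tags in the untreated library, and 13.8 at 12 h alone. The site inside Col4a5, 1.139 kb from its start and 2.46 kb from Col4a6, held 9.06 at 1 h alone. Col4a3 and Col4a4 had no listed site.

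Col6a2 encodes a chain of type VI collagen, which forms beaded microfilaments. Its sites lay upstream of the gene on chromosome 10, the only collagen sites upstream of a start site that could be measured. The one 10.6 kb from the gene (chr10:76634048-76634330) held 25 tags at 1 h and 21.1 at 12 h, a log2 ratio of -0.24 (-0.52 to 0.03) whose interval held 0. The one 12.6 kb away held 18.2 at 1 h alone. Col6a1, which lies 85.2 kb from Col6a2, and Col6a3 had no site within 25 kb. Col28a1, a related gene, held 28.4 tags inside its span at 1 h alone. At 12 h 12.1 tags would have met the threshold and the fold over the untreated library, with the local fold left out.

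Among the fibril-associated genes, Col22a1, whose product lies at tissue junctions such as that of muscle and tendon, had 2 sites inside its 355.2 kb span on chromosome 15. The shared one (chr15:71890139-71890421) held 25.5 tags at 1 h and 17.8 at 12 h, a log2 ratio of -0.52 (-0.81 to -0.23). The other (chr15:71861393-71861675) held more at 1 h, 41.5 tags, and was not listed at 12 h. It was the strongest collagen site of the 1 h list alone. Col19a1 held 24.0 tags and Col12a1, whose product coats type I fibrils, 17.4, both inside the gene and at 1 h alone. Col16a1 held 9.06 at a site 2.19 kb outside its span, also at 1 h alone.

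Of the transmembrane genes, Col23a1 was in both lists and Col13a1 in the 1 h list. The Col23a1 site (chr11:51476628-51476910), inside the gene and 186.8 kb from its start, held 9.61 tags at 1 h and 14.4 at 12 h. Its log2 ratio of 0.59 (0.19 to 0.99) was the highest of the 12 shared collagen sites, although the fold over the untreated library was 9.51 at 1 h and 7.62 at 12 h, where the window held 8 raw tags in the untreated library at 1 h and, 20 bp wider, 15 at 12 h. Col13a1 held 9.83 tags 11.0 kb outside the gene. Of the short-chain genes, Col8a1, known from vessel walls and the cornea, held 22.6 and 8.83 tags at internal sites at 1 h alone. Col7a1, the collagen of the fibrils that anchor epithelia, held 14.0 inside its span at 1 h alone.

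Of the 12 shared sites 8 were lower and 4 higher at 12 h than at 1 h, where 77.2% of all 2436 shared sites were lower. The median log2 ratio was -0.41 (0.751-fold), against -0.49 for all shared sites. The counting interval lay below 0 at 7 of the 12, where 61.8% of all shared sites did so, above 0 at 2 (Col24a1 and Col23a1), where 11.5% did, and held 0 at 3. The 12 h windows were wider, 302 against 282 bp. Per base of the window that Col24a1 ratio went from 0.171 to 0.072 and the Col6a2 ratio from -0.244 to -0.343. Their interval limits nearest 0 were 0.005 and 0.035, so the place of 0 at these sites depends on window width. Intervals were not taken per base. At least 2-fold lower were 4 sites, those past Col3a1, inside Col4a1, inside Col4a2 and 13.7 kb past Col27a1, where 24.5% of all shared sites were, and 0 were 2-fold higher. The 3 collagen sites with most tags at 1 h were thus among these 4. The 1 h value is the divisor of the ratio, so the order of sites by 1 h tags and by ratio is not independent. When ratios were centred on the median of all shared sites, a shift of 0.495, the split became 5 lower and 7 higher, and the Col24a1 site at 222.0 kb, the Col27a1 site at 9.0 kb and the Col6a2 site at 10.6 kb changed sign. In bulk chromatin, fewer bound cells and less binding per cell cannot be told apart.

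**Figure D4:**
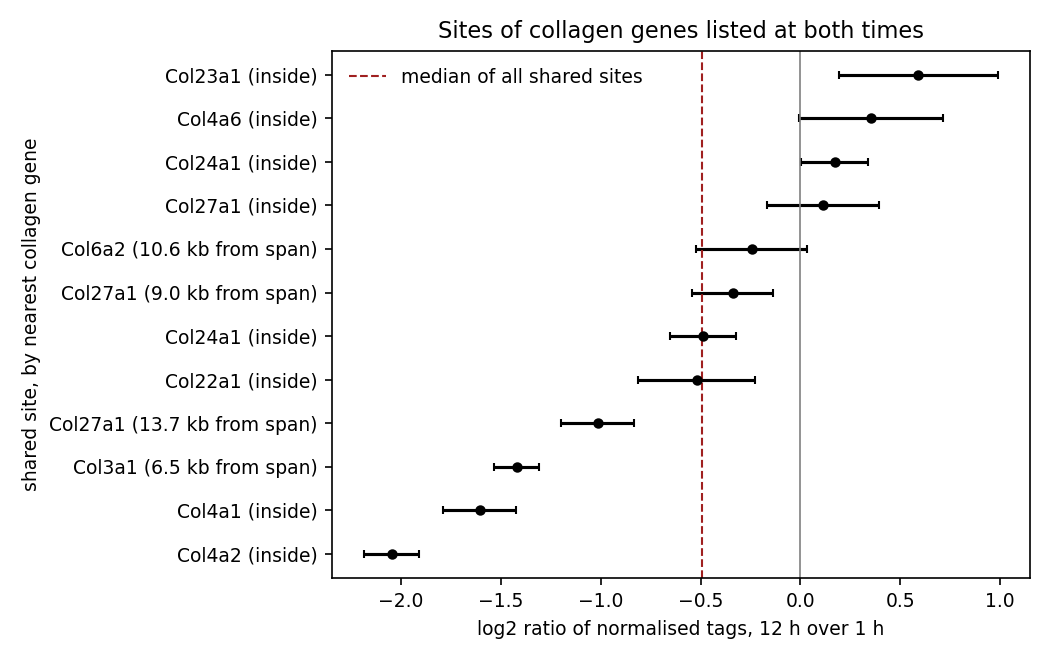
Log2 ratio of normalised tags at 12 h over 1 h (x axis) at the 12 sites of collagen genes in both lists (y axis, by nearest collagen gene and position), with bars for the exact binomial 95% interval, which covers counting error only, a solid line at 0 and a dashed line at the median of all shared sites. Ratios ran from -2.04 inside Col4a2 to 0.59 inside Col23a1, and 3 intervals held 0.

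Absence from the 12 h list need not mean an absence of binding. The 25 sites of the 1 h list alone held 8.39 to 41.5 tags there with a median of 14.0, against 9.61 to 238.2 with a median of 53.7 at the 12 shared sites. The tags each site would have needed at 12 h were taken as the larger of the threshold and 6 times its untreated level. Of the 25 sites, 19 had held under 2 times that amount at 1 h and 6 had held more. The fold over the surrounding 10 kb, another condition, was under 12 at 19 of them. For the stronger sites, Col22a1 at 41.5 tags (12.1 needed at 12 h, local fold 13.71) and Col4a1 at 35.3 (12.9 needed, local fold 9.04), no value at 12 h was analysed here. When the 1 h list was limited to its 2883 peaks with most tags, the length of the 12 h list, 11 members had a peak and 20 collagen peaks were left, against 10 and 16 at 12 h.

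Genes whose products make, process, break down or bind collagen were examined by the same rule, as a list of 69 in 5 roles. At 1 h 24 of them (34.8%) had a peak and at 12 h 17 (24.6%), where the rates of protein-coding genes of like span would have given 14.4 and 7.9. Both times were listed for 16 genes, 1 h alone for 8 and 12 h alone for 1. When a peak counted only for its nearest protein-coding gene, 17 of the 69 had one at 1 h and 13 at 12 h. By the 25 kb rule the 39 sites of these genes were 18 shared, 18 of 1 h alone and 3 of 12 h alone. Of the 18 shared sites 15 were lower at 12 h and 3 higher, all beyond the counting interval, with a median log2 ratio of -1.03. Among all 2436 shared sites 77.2% were lower, and their median was -0.495. The interval lay below 0 at 61.8% of them and above 0 at 11.5%. The density with 25 kb on each side was 5.24 per Mb at 1 h (3.67 to 7.26), against 2.49 for all protein-coding genes. At 12 h it was 3.06 (1.89 to 4.68), against 1.23.

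Among the enzymes of propeptide removal and cross-linking 7 of 14 had a 1 h peak, against 17.1% of all protein-coding genes. A 12 h peak was listed for 5 of the 14, against 9.33%. The role is small, and no test was made of either difference. Rates for genes of like span were not taken by role. Loxl3, a lysyl oxidase-like enzyme, had the strongest site of the 69 genes, with 207.2 tags at 1 h, 68.5 at 12 h and a log2 ratio of -1.60 (-1.73 to -1.47), 6.2 kb outside the gene and nearer to M1ap. Tgm2, a transglutaminase, had 6 sites at 1 h, 2 of them also at 12 h. The strongest held 108.2 tags at 1 h alone, 23.1 kb away and nearer to another gene. Beside it, a shared site 21.7 kb away held 76.7 and 25.5, and the shared site inside the gene held 47.7 and 23.9. Adamts2, which removes the amino propeptide of procollagen, went the other way at one internal site, with 30.6 and 52.3 (0.77, 0.56 to 0.99), while another of 30.9 was in the 1 h list alone. Lox, the main lysyl oxidase, held 20.9 and 12.2 at a site 20.1 kb off, with Srfbp1 nearer. Loxl1 was listed at both times through different sites, and Pcolce2 and Adamts14 at 1 h alone.

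Of the collagen receptors 5 of 9 (55.6%) had a peak at both times, the highest share of the 5 roles. Of all protein-coding genes 17.1% had a 1 h peak and 9.33% a 12 h peak, and the share with both was not taken. The role is small, and no test was made of the difference. Itga10, a collagen-binding integrin chain, held 57.6 tags at 1 h and 28.2 at 12 h, Itgb1, the partner of the collagen-binding integrins, 36.6 and 16.1, and Itga2, another such chain, 30.0 and 13.9. Ddr2, a receptor tyrosine kinase for fibrillar collagen, held 27.7 and 8.59, a log2 ratio of -1.69 (-2.06 to -1.33). All of these receptor sites were lower in the 12 h library, and the fifth gene was Itga11. Of the 16 genes of breakdown 3 (18.8%) had a 1 h peak, against 17.1% of all protein-coding genes. The same 3 had a 12 h peak, against 9.33%, and they were inhibitors of the matrix metalloproteinases. Timp3 held 69.0 and 23.2 at a site that is also inside Syn3, and Timp2 29.4 and 16.5. Timp4 had one site of 20.3 and 27.5 (0.44, 0.16 to 0.72) and one of 21.5 and 12.4, which lay 5.66 and 17.9 kb outside it and inside Syn2. No matrix metalloproteinase gene on the list had a listed site, but most of them are short. Of protein-coding genes spanning 4.32 to 11.9 kb, 13.0% had a 1 h peak and 6.61% a 12 h peak. From 11.9 to 24.9 kb the shares were 13.9% and 7.19%, and no test was made of the difference.

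Of 19 genes of chain folding and modification 6 (31.6%) had a 1 h peak and 3 (15.8%) a 12 h peak. Of all protein-coding genes 17.1% and 9.33% did. P4ha2, a prolyl 4-hydroxylase chain, held 43.4 tags at 1 h and 17.1 at 12 h inside the gene, and Plod1, a lysyl hydroxylase, 24.0 and 16.4 at a site nearer to Mfn2. Colgalt2, a collagen galactosyltransferase, and P4ha3 held 16 and 14.6 at 1 h alone, with Rgl1 and Pgm2l1 nearer, and Plod3 was also in the 1 h list alone. P4hb, named here after its values were seen as the third gene with a higher site, had a site of 11.7 and 23.5 (1.01, 0.67 to 1.35) that lay 17.8 kb off, with Mcrip1 nearer. Fibril-associated proteins had 3 of 11 (27.3%) at 1 h, against 17.1% of all protein-coding genes. These were the small proteoglycan genes Dcn and Bgn with 26.7 and 17.6 tags and the collagen-binding glycoprotein gene Sparc with 21.3, all at 1 h alone. Haus7 was nearer to that Bgn site. Fmod, another small proteoglycan of fibrils, was the gene with a peak at 12 h alone, at 7.37 tags and 12.9 kb from its span. These window tags lay below the 7.67 that equal the 12 h threshold, which the caller applied to its own score.

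**Figure D5:**
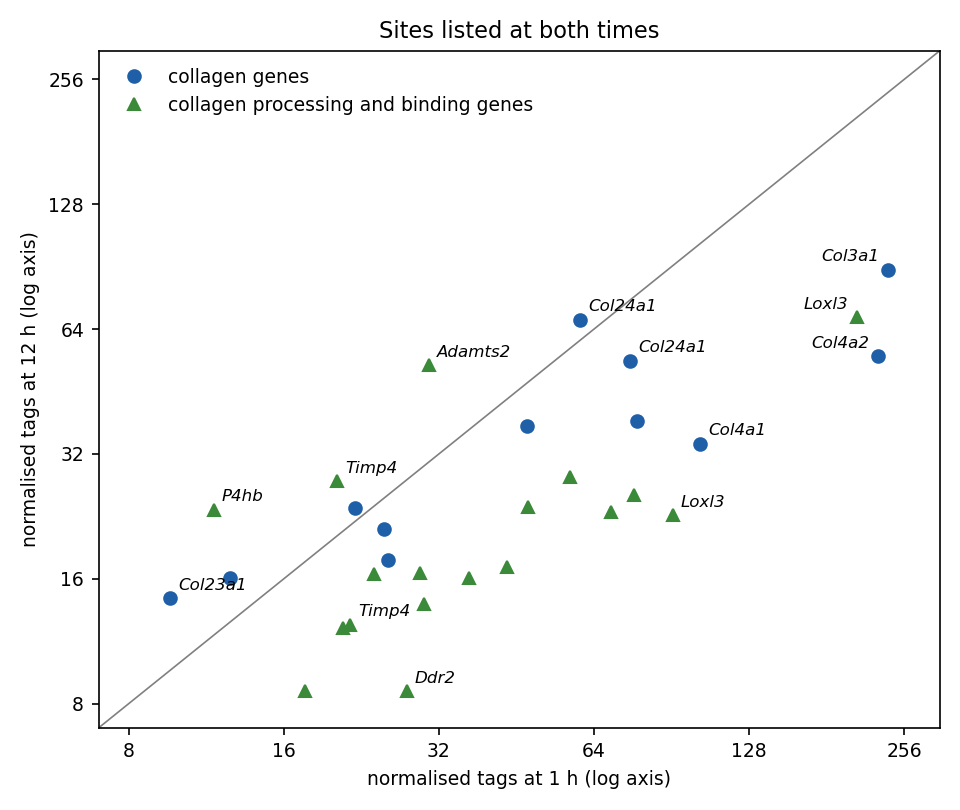
Normalised tags at 1 h (x axis, log scale) and 12 h (y axis, log scale) at sites in both lists for collagen genes (12 circles) and genes of collagen processing, breakdown and binding (18 triangles), with the line of equal values. Of the circles 8 and of the triangles 15 lie below the line, and Adamts2 (30.6 and 52.3 tags) and P4hb (11.7 and 23.5) lie above it.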

How the data were processed

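The authors deposited 1 peak list for each of 3 GR ChIP-seq libraries, and the fourth labelled sample, an input, had no list used here. The submitters' processing notes name bcl2fastq 2.17, Bowtie2 2.2.6, HOMER and the build mm10, with no HOMER version. HOMER findPeaks was run on each library separately at a false discovery rate of 0.001, per the file headers. The untreated list was called against an input and each treated list against the untreated library, per the file headers. The label of the input gives a corticosterone treatment, while the header names an untreated input, and this was not resolved. The antibody entries of the labels differ between samples in a catalogue number.

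The signal used was the deposited normalised tag count, scaled by the authors to 10000000 tags. Deposited total tags of the treated lists were scaled by the authors to the untreated library, and undoing this gave whole tags within 0.1 for 100% of peaks. The deposited score, the fold ratios over control and local region, the p-value and the focus ratio, a fraction, are the caller's own values. Of these, the folds and the score described peaks within a list, and the p-value and fraction entered no comparison. The authors' tag count of the single untreated peak is whole. Depth was 79203826, 90556119 and 97749688 tags (untreated, 1 h and 12 h).

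Gene spans came from RefSeq GRCm38.p6, on chromosomes 1 to 19 and X. Peaks were paired by an overlap of at least 1 bp. Ratios have exact binomial (Clopper-Pearson) 95% intervals from raw tags, shares Wilson intervals and densities exact Poisson intervals. Those of the ratios cover counting error alone, as tags were not counted by molecular identifiers, and set library against library rather than condition against condition. Those of shares and densities treat sites as independent and likewise describe single libraries. With 1 library per condition no test was made. The share for genes of like span weights the rates of all protein-coding genes in 5 span groups by the members in each. Every member is named by its listing, with all sites of those with a peak, and up to 4 processing genes per role by their strongest 1 h site, with any of 12 h alone. The members and lists were chosen with earlier results of these data known. Alternatives varied the window, the thresholds, the gene assignment, the pairing, the scaling, the length of the 1 h list and the span groups. Python 3.11.15, NumPy 2.4.6, pandas 2.3.3 and SciPy 1.17.1 were used, and the interval and matching code was tested on simulated data.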

Additional observations from a re-analysis of the deposited data

How the results depend on the processing

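Limits come first from single libraries: leaving out a replicate could not be run, and only replicate number 1 occurs. No paired analysis was possible because of that. Counts depended on the window and the minimums. Of the collagen genes, 12 had a 1 h peak at 2 or more times the tag threshold, 10 (1 h) and 6 (12 h) at 2 or more times both minimum folds, 16 at 12 h within 100 kb, against 22.6% of protein-coding genes, and 11 at 1 h with the shortened 1 h list. Inside the span alone 16 (1 h) and 7 (12 h) had one, against 7.63% and 4.06% of protein-coding genes, and within 100 kb 28 at 1 h, against 37.9%. Collagen peaks numbered 22 at 1 h at 2 or more times the tag threshold, 20 with the shortened 1 h list and 26 at 12 h within 100 kb. Of the 69 processing genes, 11 and 9 had a peak at 1 h and 12 h inside the span, against 7.63% and 4.06% of protein-coding genes. Within 100 kb 44 had one at 1 h, against 37.9%. At 2 or more times both folds 12 (1 h) and 5 (12 h) had one. At 2 or more times the tag threshold 11 did at 12 h, and with the shortened list 15 did at 1 h. Counting a peak only for its nearest protein-coding gene left 21 (1 h) and 9 (12 h) collagen genes and 17 and 13 processing genes. Shares of all protein-coding genes were not taken under that rule, at the raised minimums or with the shortened list.

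The median log2 ratio of shared collagen sites was -0.188 for sites inside a span. Centring on all shared sites turned the main median from -0.414 to 0.081. Its sign changed because it was less negative than the -0.495 of all shared sites. Centred, the Col24a1 site at 145514303 gave 0.007, the Col27a1 site at 63343854 gave 0.155 and the Col6a2 site at 76634048 gave 0.251, against -0.488, -0.339 and -0.244 before. With tags per base of the window or with untreated tags taken off, the split was 8 lower and 4 higher and the median -0.512 or -0.435. The 12 shared sites paired alike at an overlap of 50% of the shorter peak or at centres within 100 bp. The shortened 1 h list and the 10 and 20 span groups were chosen after seeing the data.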
